A study of Mus musculus with 36 samples.

Results

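The 31 genes described here make cholesterol and fatty acids or control their making, and they were chosen by name. All 31 were found among the 27562 genes of the expression table. By role, 7 act in the mevalonate steps, 3 turn farnesyl units into lanosterol, 8 turn lanosterol into cholesterol, 5 sense sterol or carry the SREBP signal, 1 carries sterol between membranes, and 7 make, lengthen or desaturate fatty acids.

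RNA was sequenced from AΦ and monocytes sorted from the lungs of male C57BL/6J mice (C57BL/6 in the labels). The hosts (CD45.2) had been irradiated with the chest shielded, given busulfan and transplanted with bone marrow of B6.SJL-Ptprca Pepcb/BoyJ (CD45.1) donors, so that every group, controls included, shares this treatment. Mice then inhaled filtered air (FA) or concentrated ambient PM2.5 (PM) for 4-weeks or 32-weeks. TR-AΦ are the CD45.2 AΦ of the host and BM-AΦ the CD45.1 AΦ that came from the graft. There were 36 libraries in 12 groups of 3. At 4-weeks the groups were TR-AΦ of FA, TR-AΦ of PM, and CD45.2 monocytes of each exposure. At 32-weeks they were TR-AΦ, BM-AΦ, CD45.1 monocytes and CD45.2 monocytes, each after FA and after PM. The titles of the later monocytes do not name the CD45 allele, and their origin was read by the numbering used for AΦ. The titles do not say whether libraries of different cells that share a number came from the same mouse. The paper states that 3 mice of each exposure and time were picked at random for sequencing. Cell populations of the same exposure and time would therefore share mice, and the tests between them took libraries as independent. AΦ were gated as CD64+ CD11c high CD11b low and monocytes as Ly6G- MHC II- CD64 low CD11b high. The hosts kept their own lung cells behind the shield.

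Cells make cholesterol from acetyl-CoA through mevalonate, squalene and lanosterol. The genes of this route are switched on together by SREBP2, and those of fatty acid synthesis mainly by SREBP1. SCAP escorts SREBP from the endoplasmic reticulum for cleavage when sterol is scarce, and the INSIG proteins hold SCAP back when sterol is plentiful. AΦ clear lipid-rich surfactant from the airspace and export its cholesterol, which makes sterol and fatty acid metabolism a central part of their biology.

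The values are FPKM, that is, fragments scaled for library depth and transcript length, so levels of different genes can be set side by side. Summed over all genes, the FPKM were lowest at 1839580 and highest at 3339020. The paper names a read number for the sequencing, but the depth reached in each library is unknown. Relative depth, read from the spacing of low values, spanned 3.25-fold. Of 12 AΦ marker genes 11 were higher in each of the 18 AΦ libraries than in any of the 18 monocyte libraries, and 9 of 12 monocyte markers were lower in each AΦ library. The AΦ markers summed to between 6930 and 14427 FPKM in AΦ and to between 273 and 1715 FPKM in monocytes, the highest of these being replicate 1 of the CD45.2 monocytes of PM at 32-weeks. Replicates 2 of the 4-weeks monocytes stood apart, with a neutrophil marker sum of 410 FPKM (FA) and 1158 FPKM (PM) where the other 4-weeks monocytes had 71.3 to 87.7 FPKM. In CD45.2 monocytes at 32-weeks, interstitial macrophage markers summed to between 976 and 3697 FPKM, against 106 to 585 FPKM in monocytes at 4-weeks.

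Among the 31 genes, levels spanned more than an order of magnitude within a cell type. In AΦ the highest medians over 18 libraries were those of Elovl5 (68.3 FPKM), which lengthens polyunsaturated fatty acids, Insig1 (65.7 FPKM), Msmo1 (61.2 FPKM), Acly (44.1 FPKM) and Hmgcs1 (38.9 FPKM). The lowest were those of Mvk (1.97 FPKM), Acaca (2.12 FPKM) and Tm7sf2 (2.53 FPKM). In monocytes Insig1 (79.9 FPKM) and Elovl5 (71.9 FPKM) again led, followed by Acly (30.98 FPKM) and Msmo1 (29.3 FPKM). Lss (0.762 FPKM), Mvk (0.794 FPKM) and Tm7sf2 (0.940 FPKM) stood at the bottom in monocytes. The ranges of Elovl5, Insig1 and Msmo1 over the AΦ libraries overlapped, and a difference between these neighbours in the order was not tested. The order also differed by time: in TR-AΦ Insig1 (80.9 FPKM) led Elovl5 (65.8 FPKM) at 4-weeks and, with 55.4 FPKM, lay below Elovl5 and Msmo1 at 32-weeks. Tm7sf2 was listed at 0 in 2 of the 6 monocyte libraries at 4-weeks. All 31 genes passed the filter on low values in AΦ and in the model of both cell types, and 29 passed in the monocyte model, where Mvk (0.0912 to 2.13 FPKM) and Lss (0.210 to 1.61 FPKM) had a mean under 1 FPKM and were not tested.

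**Figure D1:**
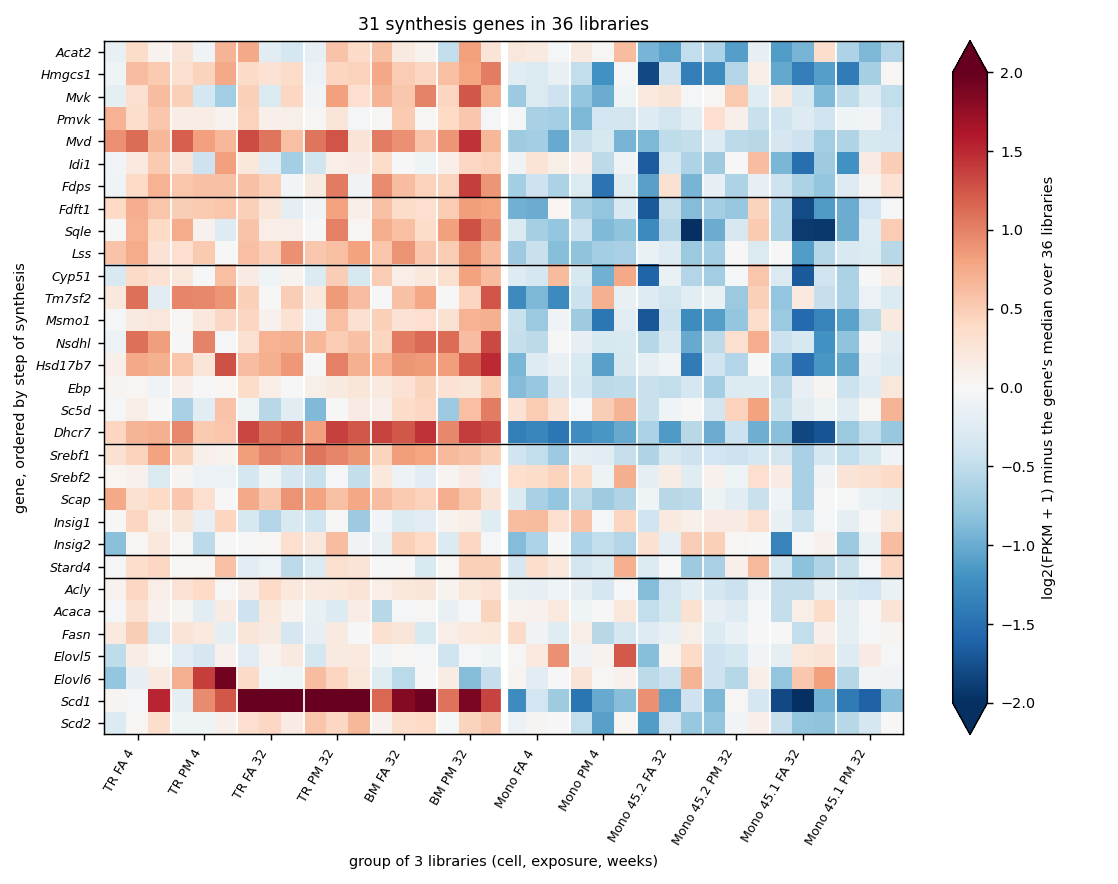
Level of each of the 31 genes (rows, by role) in each of the 36 libraries (columns, by group), as log2(FPKM + 1) minus the median of that gene over all libraries. Most rows of the sterol enzymes are above their median in the 18 AΦ libraries and below it in the 18 monocyte libraries, while Srebf2, Insig1, Acaca and Elovl5 are not.

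AΦ carried more message for most steps of cholesterol synthesis than monocytes did. With limma, 18 of the 31 genes were higher in TR-AΦ than in monocytes at 4-weeks and 2 were lower, against 22.6% and 25.5% of the 13307 genes tested. At 32-weeks 22 of 31 were higher and 1 was lower, against 31.6% and 29.4% of all genes. The median log2 fold change of the 31 genes was 0.58 at 4-weeks and 0.75 at 32-weeks, and that of all genes tested was -0.02 and 0.02. These are values on the log2(FPKM + 1) scale, which understates the change of low genes, and 32-weeks compares 12 AΦ libraries of both origins with 12 monocyte libraries. In bulk libraries of sorted cells, a lower level from fewer cells of a type and from less RNA per cell cannot be told apart. At 4-weeks all 6 TR-AΦ libraries exceeded all 6 monocyte libraries for 14 of the 31 genes, and 0 showed the opposite, against 13.6% and 16.1% of all genes. At 32-weeks all 12 AΦ libraries exceeded all 12 monocyte libraries for 7 of the 31 genes and the opposite held for 0, against 9.15% and 9.30% of all genes.

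The scaling of the libraries bears on these counts, since the FPKM sum was lower in AΦ (median 2113520) than in monocytes (median 2588080). With every library rescaled to the same sum, the median of all genes moved to 0.17 at 4-weeks and 0.21 at 32-weeks. The share of higher calls among all called genes then rose from 47.0% to 66.6% at 4-weeks and from 51.9% to 67.9% at 32-weeks. Of the 31 genes, 21 were then higher and 0 lower at 4-weeks, and 25 were higher and 0 lower at 32-weeks. Calls among all 13307 genes rose as well. At 4-weeks 4243 were then higher and 2127 lower, against 3011 and 3397 before. At 32-weeks 5658 were higher and 2669 lower, against 4211 and 3908 before. Without replicates 2 of both cell types, which removes the monocyte libraries with neutrophil markers, 18 genes were higher and 0 lower at 4-weeks. Of all genes, 2566 were then higher and 3022 lower. Of the other marker sums, those of T or NK cells (181 to 256 FPKM in AΦ and 2.36 to 108 FPKM in monocytes) and of alveolar epithelium (52.6 to 108 and 2.62 to 37.0 FPKM) lay higher in every AΦ library. Cd2 alone made up 180 to 251 FPKM of the former, while Cd3e was at most 2.73 FPKM in AΦ and Cd3d was at 0 in 16 of 18 AΦ libraries. Epcam (26.7 to 79.0 FPKM) and Cdh1 (12.3 to 30.8 FPKM) made up most of the latter, and Sftpc had a median of 4.88 FPKM in AΦ and 5.35 FPKM in monocytes. Cell cycle markers summed to between 14.6 and 87.9 FPKM in AΦ and to between 6.397 and 33.8 FPKM in monocytes, with all 10 genes overlapping, and the part of these markers in the result was not tested.

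Of the 7 genes of the mevalonate steps, 5 were higher in AΦ at 4-weeks and all 7 at 32-weeks, against 22.6% and 31.6% of all genes. Mvd, which decarboxylates mevalonate pyrophosphate, had a lowest, median and highest level of 15.3, 17.8 and 22.6 FPKM in TR-AΦ at 4-weeks and of 4.15, 5.37 and 7.26 FPKM in monocytes. Its 18 AΦ libraries all lay above its 18 monocyte libraries. The log2 fold change was 1.57 ± 0.17 (SE; limma adjusted p = 9.28e-09) at 4-weeks and 1.41 ± 0.12 (adjusted p = 5.10e-11) at 32-weeks. Hmgcs1, the synthase that feeds the route, was higher by 0.83 ± 0.24 at 4-weeks and by 1.40 ± 0.17 at 32-weeks on the log2 scale. Fdps, which makes farnesyl pyrophosphate, was higher by 1.08 and 0.94, and the mevalonate kinase Mvk by 0.58 and 0.66. Pmvk, which adds the next phosphate, was higher by 0.83 and 0.40. Idi1, the isomerase of the route, passed only at 32-weeks (0.58, adjusted p = 0.0125) and had 0.25 (adjusted p = 0.491) at 4-weeks.

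Acat2, the thiolase at the head of the route, passed at 32-weeks only. In TR-AΦ it had 2.32, 3.10 and 4.86 FPKM (lowest, median and highest of 6) at 4-weeks, and monocytes had 2.61, 3.14 and 4.63 FPKM, so the cell types overlapped fully. At 32-weeks the 12 AΦ libraries had 1.60, 3.27 and 5.50 FPKM and the 12 monocyte libraries 0.690, 1.18 and 3.67 FPKM. The log2 difference between AΦ and monocytes was -0.01 (adjusted p = 1) at 4-weeks and 0.88 (adjusted p = 0.000101) at 32-weeks. Tested within CD45.2 cells, the difference between the times was 0.90 ± 0.35 and did not pass (adjusted p = 0.128). Acat3, a near copy of Acat2, was at most 0.317 FPKM in any AΦ library and 0.280 FPKM in any monocyte library, and how reads shared by the copies were divided is uncertain.

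All 3 genes between farnesyl pyrophosphate and lanosterol were higher in AΦ at both time points, against 22.6% and 31.6% of all genes. Fdft1, the squalene synthase, was higher by 1.15 on the log2 scale at 4-weeks and by 1.15 at 32-weeks. Sqle, the squalene epoxidase, was higher by 0.92 and 1.37. Lss, which closes the ring to lanosterol, had 1.62, 2.54 and 3.38 FPKM in TR-AΦ at 4-weeks and 0.456, 0.599 and 0.921 FPKM in monocytes, and was higher by 1.11 and 1.08. For each of these 3 genes the 6 TR-AΦ libraries at 4-weeks lay above the 6 monocyte libraries.

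Of the 8 genes from lanosterol to cholesterol, 6 were higher at 4-weeks and 7 at 32-weeks, against 22.6% and 31.6% of all genes. Dhcr7, the reductase that makes cholesterol from 7-dehydrocholesterol, separated the cell types most among the sterol enzymes. It had 12.6, 15.1 and 15.5 FPKM in TR-AΦ of FA at 4-weeks (replicates 0, 1 and 2), 18.6, 13.5 and 13.8 FPKM in those of PM, and 2.70 to 4.01 FPKM in the 6 monocyte libraries. At 32-weeks it ranged from 16.8 to 26.4 FPKM over 12 AΦ libraries and from 1.85 to 6.45 FPKM over 12 monocyte libraries. The log2 fold change was 1.90 ± 0.15 (adjusted p = 2.30e-11) and 2.15 ± 0.10 (adjusted p = 5.76e-16). Hsd17b7, a ketosteroid reductase of the route, was higher by 1.11 and 1.45. Tm7sf2, a sterol reductase, was higher by 1.20 and 0.75, from low levels in both cell types. The demethylation enzymes Msmo1 (0.78 and 1.20) and Nsdhl (0.76 and 1.13) and the isomerase Ebp (0.58 and 0.55) were also higher. Cyp51, which removes the first methyl group of lanosterol, passed at 32-weeks (0.67, adjusted p = 0.00722) and not at 4-weeks (0.29, adjusted p = 0.451). Sc5d, the desaturase before Dhcr7, had -0.40 (95% interval -0.92 to 0.12) and 0.01 (-0.36 to 0.38) and passed at neither time.

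**Figure D2:**
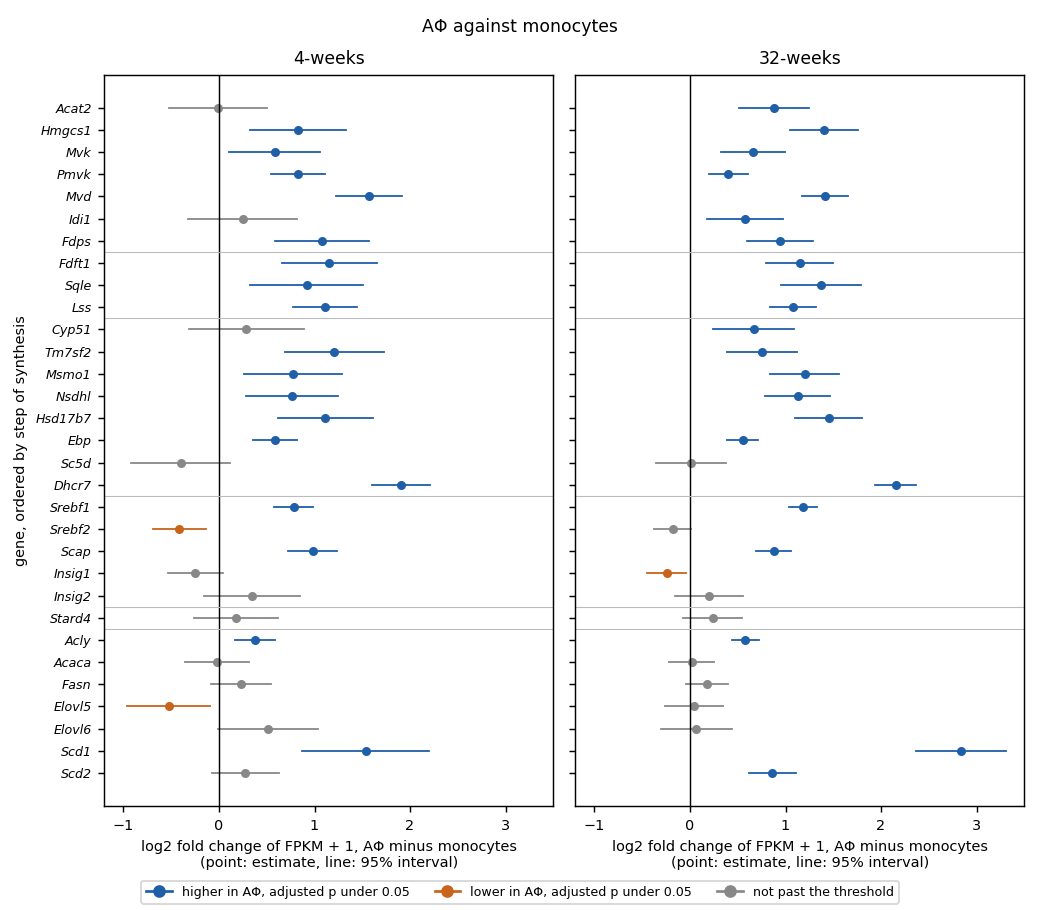
Log2 fold change of AΦ over monocytes for each of the 31 genes at 4-weeks and at 32-weeks, with 95% intervals from limma on log2(FPKM + 1); colours mark genes past an adjusted p of 0.05 as higher or lower. Most intervals of the sterol enzymes lie to the right of 0 in both panels, and Scd1 at 32-weeks (2.84) and Dhcr7 (1.90 and 2.15) lie farthest right.

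The 5 sensing genes split. Srebf1 was higher in AΦ by 0.78 ± 0.10 (adjusted p = 2.94e-07) at 4-weeks and 1.18 ± 0.07 (adjusted p = 6.40e-14) at 32-weeks, and Scap, the SREBP escort, by 0.98 ± 0.13 and 0.88 ± 0.09. For both genes the AΦ libraries lay above the monocyte libraries at each time. Srebf2 had a lowest, median and highest level of 17.0, 20.5 and 22.3 FPKM in TR-AΦ at 4-weeks and 19.5, 27.4 and 35.5 FPKM in monocytes, a log2 difference of -0.41 (adjusted p = 0.0128). Without replicate 2 of the PM monocytes, a library with neutrophil markers, the adjusted p of Srebf2 was 0.0567, and it was 0.639 with rescaled libraries, 0.20 under quantile normalization and 0.320 without all libraries numbered 2. At 32-weeks Srebf2 had -0.18 (adjusted p = 0.103). The ratio of Srebf1 to Srebf2 was above 1 in all 18 AΦ libraries and in 0 of 18 monocyte libraries. Insig1 had -0.25 at each time, with an adjusted p of 0.151 at 4-weeks and 0.0344 at 32-weeks, and rescaling turned the 32-weeks value to 0.040 (adjusted p = 0.778). Without all libraries numbered 2 the adjusted p was 0.507. The 32-weeks call of Insig1 was also lost when any of 9 single libraries was left out, with adjusted p of 0.0557 to 0.0800: replicate 1 of TR-AΦ, BM-AΦ or CD45.2 monocytes of FA, or replicate 2 of TR-AΦ, BM-AΦ or either monocytes of PM or of either monocytes of FA. Insig2 had 0.35 (adjusted p = 0.260) and 0.20 (adjusted p = 0.340). Stard4, which carries sterol between membranes, had 0.18 and 0.24 (adjusted p = 0.523 and 0.179).

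Of the 7 fatty acid genes, 2 were higher in AΦ at 4-weeks and 3 at 32-weeks, near the 22.6% and 31.6% of all genes. Scd1, the desaturase that makes oleate and palmitoleate, was higher by 1.54 ± 0.32 (adjusted p = 0.000255) and 2.84 ± 0.23 (adjusted p = 2.12e-11). Acly, which makes cytosolic acetyl-CoA from citrate, was higher by 0.38 and 0.58, and all AΦ libraries (38.2 to 50.5 FPKM) lay above all monocyte libraries (20.2 to 37.1 FPKM). Scd2 passed at 32-weeks (0.86, adjusted p = 5.97e-07) and not at 4-weeks (0.28, adjusted p = 0.189), and the test of the difference between the times in CD45.2 cells did not pass (0.66, adjusted p = 0.0994). Acaca and Fasn, the carboxylase and the synthase that build palmitate, had log2 differences of -0.02 and 0.23 at 4-weeks and of 0.02 and 0.18 at 32-weeks, and did not pass. Their 95% intervals at 32-weeks ran from -0.22 to 0.25 for Acaca and from -0.04 to 0.40 for Fasn. Elovl6, which lengthens palmitate, had 0.51 (adjusted p = 0.104) and 0.07 (adjusted p = 0.775).

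Elovl5 was lower in TR-AΦ at 4-weeks, with a log2 difference of -0.53 (adjusted p = 0.0405), and had 0.04 (adjusted p = 0.834) at 32-weeks. The 4-weeks monocytes had 71.0, 80.9 and 133 FPKM (FA) and 66.5, 74.1 and 166 FPKM (PM), and TR-AΦ 49.0 to 78.1 FPKM. The 2 high values are those of the libraries with neutrophil markers. Without the FA library of that pair the adjusted p was 0.138, and without the PM library it was 0.182. The call was also lost without replicate 0 of TR-AΦ of FA (0.118), replicate 0 (0.0694) or replicate 1 (0.0860) of TR-AΦ of PM. Of the 8 other alternatives 5 lost it: no filter (0.0647), quantile normalization (0.240), rescaled libraries (0.525), all libraries numbered 2 left out (0.307) and only the groups compared (0.119).

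Lists of genes of neighbouring routes were read against the shares of all genes given above (22.6% higher and 25.5% lower at 4-weeks, 31.6% and 29.4% at 32-weeks). Of 11 tested genes of SREBP processing and further synthesis, 4 were higher and 3 lower in AΦ at 4-weeks, and 4 were higher and 5 lower at 32-weeks. The citrate carrier Slc25a1 was higher by 1.18 and 1.42. Acss2, which makes acetyl-CoA from acetate, was lower (-1.19 and -0.87), as was Mid1ip1, an activator of acetyl-CoA carboxylase (-1.52 and -1.17). Of 10 genes of sterol efflux and storage, 6 were higher and 2 lower at 4-weeks and 5 were higher and 2 lower at 32-weeks, led by the exporter Abcg1 (3.44 and 3.88). Of 15 genes of fatty acid uptake and oxidation, 11 were higher and 1 lower at 4-weeks and 15 were higher at 32-weeks. Among them was the lipase Lpl (4.54 and 4.51).

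The promoters of 4 enzymes that were higher in AΦ at both times, and of Insig1, which was not, are shown as the stretches just upstream of their starts. They were taken from RefSeq on GRCm38.p6, are written 5′ to 3′ on the strand of the gene, and overlap no annotated exon. Capitals mark the sterol regulatory element TCACNCCAC, the E-box CACGTG, the CCAAT box (ATTGG on the other strand) and the GC box GGGCGG, which reads CCGCCC on the other strand. Hmgcs1 lies at chr13:119690191-119690350 (plus strand), Mvd at chr8:122443423-122443582 (minus), Hsd17b7 at chr1:169969242-169969401 (minus), Dhcr7 at chr7:143822985-143823144 (plus) and Insig1 at chr5:28071203-28071362 (plus).
Hmgcs1: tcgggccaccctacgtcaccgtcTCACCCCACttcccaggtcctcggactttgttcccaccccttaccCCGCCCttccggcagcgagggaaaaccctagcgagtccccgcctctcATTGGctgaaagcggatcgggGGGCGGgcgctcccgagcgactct
Mvd: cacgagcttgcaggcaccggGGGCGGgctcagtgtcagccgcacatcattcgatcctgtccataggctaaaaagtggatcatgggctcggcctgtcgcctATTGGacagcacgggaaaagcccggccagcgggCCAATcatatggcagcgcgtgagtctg
Hsd17b7: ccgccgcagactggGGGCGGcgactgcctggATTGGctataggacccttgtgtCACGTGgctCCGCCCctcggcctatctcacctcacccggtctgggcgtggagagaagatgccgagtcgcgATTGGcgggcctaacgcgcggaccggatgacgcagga
Dhcr7: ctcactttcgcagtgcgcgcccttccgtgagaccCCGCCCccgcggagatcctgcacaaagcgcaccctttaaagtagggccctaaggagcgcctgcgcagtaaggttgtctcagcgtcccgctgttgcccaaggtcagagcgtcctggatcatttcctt
Insig1: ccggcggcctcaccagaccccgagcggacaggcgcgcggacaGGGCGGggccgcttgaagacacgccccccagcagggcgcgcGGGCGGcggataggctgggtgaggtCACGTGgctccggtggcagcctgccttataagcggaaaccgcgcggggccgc

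RefSeq promoter windows (250 bases before to 50 after the start) matched 25 of the 31 genes, and none was held for Fdps, Fdft1, Sqle, Stard4, Scd1 and Scd2. Both strands were searched, and none of these motifs contains another. The CCAAT box was in 20 of the 25 windows, against 38.0% of 27025 windows and 38.7% of 8015 windows of genes tested here. The GC box was in 18 of the 25, against 35.9% of all windows and 65.6% of those of tested genes. The E-box was in 5 of the 25 (Elovl5, Hsd17b7, Insig1, Sc5d and Scap), against 7.24% of all and 10.9% of tested genes. The sterol regulatory element in these letters was in 1 of the 25, that of Hmgcs1, against 1.22% of all and 1.02% of tested genes. Such a match describes the letters only, and other spellings of these sites and other starts of these genes were not searched.

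Between 4-weeks and 32-weeks 4 of the 31 genes passed the threshold in TR-AΦ. With limma and both exposures averaged, 3 of the 31 genes were higher at 32-weeks (Scd1, Srebf1 and Dhcr7) and 1 was lower (Insig1), against 2.56% and 3.35% of 12665 genes. The median log2 change of the 31 genes was 0.02, and that of all genes 0.03. Of all genes called, 43.3% were higher, and 18.4% with rescaled libraries. The times also differ in the age of the mice, which cannot be told apart from the length of exposure.

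Scd1 changed most. It had 6.08, 5.64 and 18.5 FPKM in TR-AΦ of FA at 4-weeks (replicates 0, 1 and 2) and 4.90, 12.03 and 15.1 FPKM in those of PM. At 32-weeks it had 31.9, 35.5 and 33.4 FPKM (FA) and 31.1, 27.6 and 37.8 FPKM (PM). Every library at 32-weeks lay above every library at 4-weeks, a separation in the higher direction that 2 of the 31 genes and 1.55% of all genes showed. The log2 change was 1.72 ± 0.29 (adjusted p = 0.00381). Scd2, which encodes a related desaturase, had 0.42 ± 0.12 and did not pass (adjusted p = 0.0565). Both genes lie on chromosome 19 (GRCm38, Scd1 at 44394455-44407879 on the minus strand and Scd2 at 44293674-44306864 on the plus strand). The ratio of Scd1 to Scd2 was 0.238 to 0.654 over the 6 TR-AΦ libraries at 4-weeks and 0.931 to 1.35 over the 6 at 32-weeks, with no overlap. The near copies Scd3 and Scd4 were at most 0.165 and 0.354 FPKM in any AΦ library, and the division of shared reads among these genes is uncertain.

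Srebf1 was the other gene whose libraries did not overlap. It had 22.7, 25.3 and 32.3 FPKM (FA) and 25.1, 19.5 and 19.1 FPKM (PM) at 4-weeks, and 33.0, 37.2 and 35.0 FPKM (FA) and 39.0, 36.7 and 34.1 FPKM (PM) at 32-weeks. The log2 change was 0.58 ± 0.10 (adjusted p = 0.00591), and the call was lost with rescaled libraries (adjusted p = 0.0692). Dhcr7, whose 4-weeks values are given above, had 24.4, 20.3 and 21.9 FPKM (FA) and 16.8, 24.9 and 22.8 FPKM (PM) at 32-weeks, a log2 change of 0.53 ± 0.12 (adjusted p = 0.0199). Its ranges overlapped through replicate 0 of PM at each time.

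Insig1 went the other way. It had 71.2, 96.7 and 77.4 FPKM (FA) and 84.4, 63.2 and 96.6 FPKM (PM) at 4-weeks, and 56.9, 46.9 and 57.7 FPKM (FA) and 54.0, 71.0 and 42.5 FPKM (PM) at 32-weeks. It fell by 0.57 on the log2 scale (SE 0.14, adjusted p = 0.0313), with overlapping ranges. Insig2, its paralog, had 0.38 (adjusted p = 0.293). The ratio of Insig1 to Insig2 had a median of 14.2 at 4-weeks and 6.68 at 32-weeks, and ran from 9.76 to 21.5 and from 6.52 to 8.37.

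The calls for Dhcr7 and Insig1 were lost under 5 and 8 of 19 alternatives. Both were lost with rescaled libraries (adjusted p = 0.113 for each), without all libraries numbered 2 (0.183 and 0.187) and with only the groups compared (0.0521 and 0.0835). That of Dhcr7 was also lost without replicate 0 of FA (adjusted p = 0.0540) or replicate 1 of PM (0.0526) at 4-weeks. That of Insig1 was also lost without replicate 1 of FA (0.0793) or replicate 2 of PM (0.0704) at 4-weeks, and without replicate 1 of FA (0.0686), replicate 0 of PM (0.0646) or replicate 2 of PM (0.0681) at 32-weeks. Scd1 passed under all 19 alternatives. Markers of stress and dissociation summed to between 2747 and 4897 FPKM in TR-AΦ at 4-weeks and to between 1380 and 2984 FPKM at 32-weeks. Interstitial macrophage markers reached 631 FPKM in 1 TR-AΦ library at 4-weeks and at most 76.2 FPKM at 32-weeks, and the part of both in these results was not tested.

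**Figure D3:**
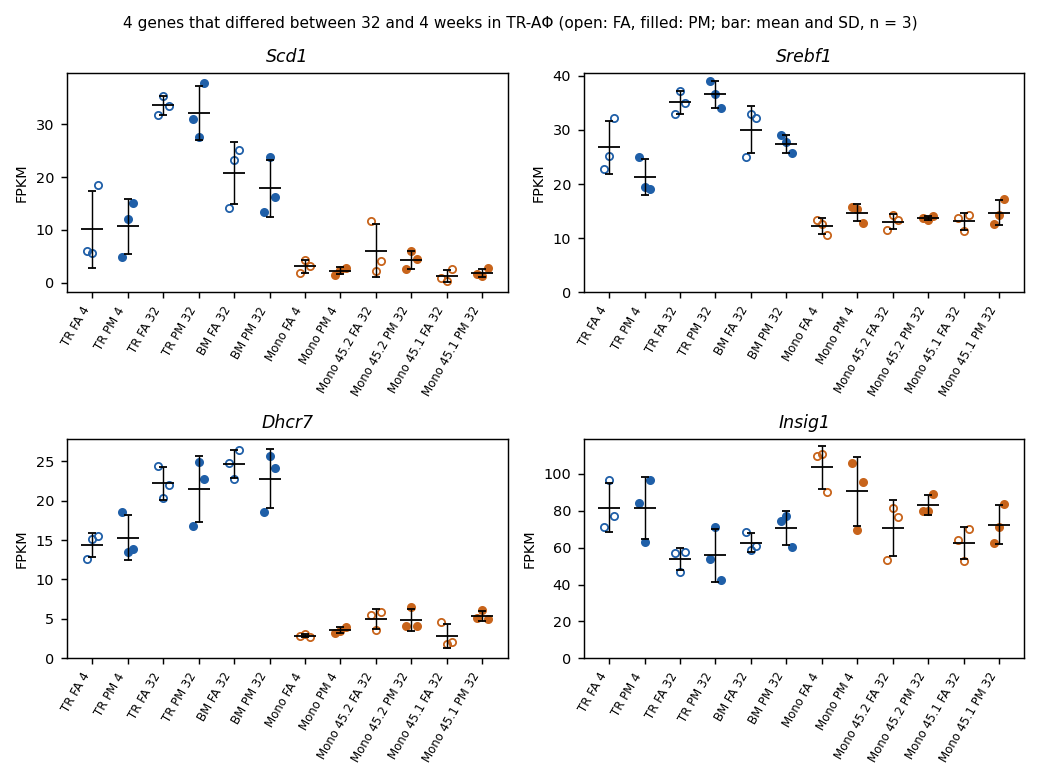
FPKM of Scd1, Srebf1, Dhcr7 and Insig1 in each of the 36 libraries by cell group (open circles FA, filled circles PM, bars mean ± SD of 3 libraries). TR-AΦ at 32-weeks lie above TR-AΦ at 4-weeks for Scd1 (27.6 to 37.8 against 4.90 to 18.5 FPKM) and Srebf1, and mostly below for Insig1.

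Within single exposures there were fewer calls. After FA, 0 of the 31 genes passed (0.782% of all genes did), 5 had an unadjusted p under 0.05 (12.1% of all genes did), and Scd1 had 1.83 (adjusted p = 0.0602). Without replicate 2 of the 4-weeks FA group, which had 18.5 FPKM, Scd1 passed (2.33, adjusted p = 0.00936). After PM 1 passed, against 1.05% of all genes, of which 25.6% were higher and 8.64% with rescaled libraries. Srebf1 was higher by 0.77 ± 0.14 (adjusted p = 0.0231). That call was lost without replicate 1 (adjusted p = 0.108) or replicate 2 (0.0915) of PM at 4-weeks, and without replicate 0 (0.0940), replicate 1 (0.0739) or replicate 2 (0.0569) of PM at 32-weeks. It was also lost with rescaled libraries (0.206), without all libraries numbered 2 (0.184) and with only the groups compared (0.202). Of the 10, 10 and 15 tested genes on the lists of further synthesis, sterol efflux, and fatty acid uptake and oxidation, 1, 1 and 2 were higher in TR-AΦ at 32-weeks with both exposures averaged and 0 were lower. These were Slc25a1 (0.67), Abcg1 (0.45), and the carnitine transferases Cpt1a (0.39) and Cpt2 (0.63).

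In CD45.2 monocytes, 1 of 29 tested genes was lower at 32-weeks than at 4-weeks and 0 were higher, against 7.83% and 7.06% of 12856 genes (47.4% of all calls were higher, and 67.7% with rescaled libraries). This was Acat2, which had 3.305, 3.15 and 2.61 FPKM (FA) and 3.14, 2.73 and 4.63 FPKM (PM) at 4-weeks. At 32-weeks it had 0.919, 0.751 and 1.62 FPKM (FA) and 1.40, 0.702 and 2.28 FPKM (PM), all below the 4-weeks libraries. It fell by 0.93 on the log2 scale (SE 0.25, adjusted p = 0.0206), and the call was lost without replicate 2 of PM at 4-weeks (adjusted p = 0.0567) or replicate 1 of PM at 32-weeks (0.0574). The former is the library with the highest neutrophil marker sum and the latter the one with the highest AΦ marker sum among monocytes. The interstitial macrophage marker sums given above were also higher in every library of these monocytes at 32-weeks than at 4-weeks. Their part in the fall of Acat2 was not tested. With rescaled libraries Acat2 fell by 0.55 and the call held. Dhcr7 had 0.47 (adjusted p = 0.0880) and Insig2 0.72 (adjusted p = 0.0968) and did not pass.

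Whether the change with time differed between TR-AΦ and CD45.2 monocytes was tested directly. It did for 1 of the 31 genes, which is near the 3.53% of all genes in that direction (44.8% of all calls, and 23.2% with rescaled libraries). Srebf1 changed by 0.58 ± 0.14 more in TR-AΦ (adjusted p = 0.0109). In monocytes it had 10.5 to 15.8 FPKM at 4-weeks and 11.6 to 14.3 FPKM at 32-weeks. The call was lost under quantile normalization (adjusted p = 0.0591) and with rescaled libraries (0.166). Scd1 (1.07, adjusted p = 0.168) and Scd2 (0.66, adjusted p = 0.0994) did not pass. The part of the interstitial macrophage markers, which differed between the times in these monocytes, was not tested.

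BM-AΦ and TR-AΦ of the same time point were compared for the effect of cell origin. None of the 31 genes passed with limma (0 of 31), and 0.316% of all genes did. At an unadjusted p under 0.05 there were 8 of the 31, against 7.45% of all genes. The log2 difference was above 0 for 17 of the 18 enzymes from Acat2 to Dhcr7, against 55.3% of all genes, and these genes are not independent of each other. The mean log2(FPKM + 1) of the 18 enzymes ran from 3.45 to 3.91 over the 6 BM-AΦ libraries and from 3.13 to 3.71 over the 6 TR-AΦ libraries, which overlap. Values ranged from -0.01 (Mvd) to 0.56 (Sc5d) among these 18. For example, Sqle had 13.03, 11.8 and 9.90 FPKM (FA) and 14.0, 19.4 and 15.04 FPKM (PM) in BM-AΦ. In TR-AΦ it had 11.6, 8.28 and 8.27 FPKM (FA) and 7.45, 16.0 and 7.66 FPKM (PM), a log2 difference of 0.47 (adjusted p = 0.621).

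Srebf1 and Scd1 lay the other way, while Srebf2 had 0.29 (adjusted p = 0.479). By the ratio of mean FPKM, BM-AΦ over TR-AΦ, other genes outside the enzymes were also lower. These were Elovl6 (0.594), Scap (0.859), Scd2 (0.916), Elovl5 (0.922), Insig2 (0.966) and Acly (0.970). Insig1 (1.22), Stard4 (1.17), Fasn (1.09) and Acaca (1.03) were higher. All 6 BM-AΦ libraries were below all 6 TR-AΦ libraries for Srebf1 and Scd1, against 0.545% of all genes in that direction. Srebf1 had 25.0, 33.0 and 32.2 FPKM (FA) and 29.0, 27.8 and 25.7 FPKM (PM) in BM-AΦ, a log2 difference of -0.31 (95% interval -0.54 to -0.09, adjusted p = 0.366). Scd1 had 14.1, 23.3 and 25.1 FPKM (FA) and 13.4, 23.9 and 16.2 FPKM (PM) in BM-AΦ, a log2 difference of -0.77 (-1.40 to -0.15, adjusted p = 0.487). The Scd1 to Scd2 ratio in BM-AΦ, 0.503 to 0.855, lay below that of TR-AΦ of the same age. Monocyte markers summed to between 424 and 749 FPKM in BM-AΦ and to between 298 and 559 FPKM in TR-AΦ at 32-weeks, and their part was not tested.

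At 32-weeks, monocytes of CD45.1 and of CD45.2 origin were compared, and 0 of 29 tested genes passed with limma, against 0.669% of all genes. At an unadjusted p under 0.05 there was 1, against 9.59% of all genes. That was Scd1, with -1.23 (95% interval -1.95 to -0.50, adjusted p = 0.147) in CD45.1 relative to CD45.2. Its CD45.1 libraries had 0.950, 0.210 and 2.51 FPKM (FA) and 1.55, 1.22 and 2.74 FPKM (PM). Its CD45.2 libraries had 11.8, 2.23 and 4.11 FPKM (FA) and 2.64, 5.93 and 4.38 FPKM (PM). Next in order of p were Ebp (0.24) and Insig2 (-0.43). The highest Scd1 value, 11.8 FPKM, was in the library with the highest sum of interstitial macrophage markers (3697 FPKM).

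The comparison of PM with FA asked whether inhaled particles moved these genes in any cell population. With limma, 0 of the genes passed in each of the 6 pairs of groups, in the averages over the AΦ pairs and over the monocyte pairs, and in the tests of exposure by time and by origin. Few genes of any kind passed: 0.00790% of all genes in TR-AΦ at 4-weeks, 0.00% in TR-AΦ at 32-weeks, 0.0158% in BM-AΦ, 0.00778% in monocytes at 4-weeks and 0.00% in each of the monocytes at 32-weeks. The averages over AΦ and over monocytes gave 0.00790% and 0.00778%, and the tests by time and by origin 0.00790% and 0.0158%. All these shares are those of limma on FPKM. The paper, with Cuffdiff, reported more genes that differed between PM and FA in each of the AΦ pairs. At an unadjusted p under 0.05, limma gave 3 of 31 genes in TR-AΦ at 4-weeks, 0 in TR-AΦ and 0 in BM-AΦ at 32-weeks, 1 of 29 in monocytes at 4-weeks, and at 32-weeks 3 of 29 in CD45.1 and 1 of 29 in CD45.2 monocytes. It gave 2 of 31 in the average over AΦ, 2 of 29 in that over monocytes, 1 of 31 for exposure by time and 0 for exposure by origin. Of all genes this p took in 2.94%, 3.13% and 2.05% in those AΦ pairs, 2.12%, 4.74% and 4.25% in the monocyte pairs, 2.95% and 5.0% in the averages over AΦ and over monocytes, and 3.0% and 1.89% for exposure by time and by origin. A miss of the threshold does not show equality. Among the 31 genes in TR-AΦ the 95% intervals reached as far as 2.30 at 4-weeks and 1.05 at 32-weeks.

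**Figure D4:**
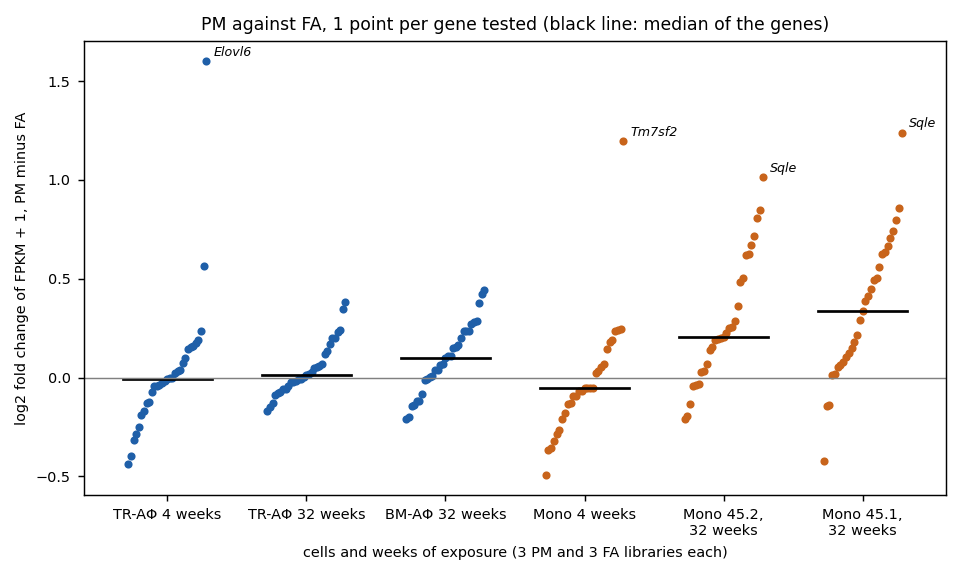
Log2 fold change of PM over FA for each gene in 6 pairs of groups (points, 1 per gene; line, median). Medians lie near 0 in the AΦ pairs and in monocytes at 4-weeks (-0.01 to 0.10 in AΦ and -0.05 in monocytes), and at 0.34 (CD45.1) and 0.20 (CD45.2) in monocytes at 32-weeks.

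Elovl6 had the lowest p among the members in TR-AΦ at 4-weeks. It had 1.38, 2.65 and 3.63 FPKM after FA and 5.73, 9.65 and 14.6 FPKM after PM. The log2 difference was 1.60 ± 0.33 (95% interval 0.90 to 2.30, limma adjusted p = 0.418). At 32-weeks TR-AΦ had 4.33, 2.96 and 2.84 FPKM (FA) and 5.30, 4.52 and 3.78 FPKM (PM), a difference of 0.35 (-0.36 to 1.05), and BM-AΦ had -0.14 (-0.84 to 0.56). The change of the difference between the times was -1.25 and did not pass (adjusted p = 1). The other 6 fatty acid genes lay between -0.12 (Acaca) and 0.14 (Scd1) at 4-weeks. Pmvk had 12.7, 9.83 and 11.3 FPKM after FA and 8.44, 8.46 and 7.91 FPKM after PM, a log2 difference of -0.40 (adjusted p = 1). Srebf1, with values given above, had -0.32 (adjusted p = 1).

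At 32-weeks the lowest p of the AΦ pairs was that of Stard4 in both origins. In TR-AΦ it had 8.49, 9.05 and 6.596 FPKM (FA) and 7.96, 12.7 and 12.1 FPKM (PM), a log2 difference of 0.38 (95% interval -0.07 to 0.83). In BM-AΦ it had 9.99, 10.1 and 7.92 FPKM (FA) and 10.3, 14.2 and 14.2 FPKM (PM), a difference of 0.42 (-0.03 to 0.87). Neither difference passed (adjusted p = 1 in each). Next in order were Scd2 (0.24) and Elovl6 (0.35) in TR-AΦ and Sqle (0.44) and Fdft1 (0.28) in BM-AΦ. For exposure by origin the lowest p were those of Hsd17b7 (0.54), Hmgcs1 (0.33) and Cyp51 (0.36), each with an adjusted p of 1.

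In monocytes at 32-weeks the genes lay mostly on the PM side without passing. The log2 difference was above 0 for 26 of 29 genes in CD45.1 and for 23 of 29 in CD45.2 monocytes, against 53.5% and 52.9% of all genes. The medians were 0.34 and 0.20, and those of all genes 0.03 and 0.02. The CD45.1 median was 0.16 without replicate 2 and 0.52 without replicate 0 of PM, and 0.19 with rescaled libraries. In monocytes at 4-weeks 11 of 29 were above 0, against 46.7% of all genes. With both origins averaged, a comparison added after these values were seen, 27 of 29 were above 0 (54.9% of all genes) and 8 had an unadjusted p under 0.05 (8.90% of all genes). The genes are not independent of each other, here or in the single origins, so these counts are not of separate results. The lowest adjusted p was 0.395, that of Sqle, and 0.00% of all genes passed.

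Sqle had 4.53, 1.23 and 1.21 FPKM in CD45.1 monocytes of FA and 3.23, 6.11 and 10.9 FPKM in those of PM. In CD45.2 monocytes it had 2.51, 4.67 and 1.13 FPKM (FA) and 3.26, 5.78 and 11.1 FPKM (PM). The exposures overlapped in both origins, and the averaged log2 difference was 1.13 (95% interval 0.40 to 1.85). Idi1 had an averaged difference of 0.85 (0.17 to 1.53) and Nsdhl of 0.55 (0.04 to 1.06). Without all libraries numbered 2 the averaged difference was 0.46 for Sqle and 0.15 for Nsdhl. Dhcr7 had 4.64, 1.85 and 2.05 FPKM (FA) and 5.05, 6.14 and 4.98 FPKM (PM) in CD45.1 monocytes, a difference of 0.80 (0.27 to 1.32, adjusted p = 0.946). In CD45.2 monocytes it had 5.49, 3.59 and 5.87 FPKM (FA) and 4.04, 6.45 and 4.11 FPKM (PM), which overlap. Same-numbered PM libraries lay close: Hmgcs1 had 10.1, 17.4 and 28.8 FPKM in CD45.1 and 11.2, 18.5 and 30.6 FPKM in CD45.2 monocytes, so the 6 libraries may not be independent. The mean log2(FPKM + 1) of the sterol enzymes was 2.08 to 2.68 over the 6 FA and 2.35 to 3.13 over the 6 PM libraries, which overlap. Cell cycle markers moved the same way, summing to between 8.65 and 21.5 FPKM after FA and to between 8.91 and 33.8 FPKM after PM, as did AΦ markers (273 to 810 and 340 to 1715 FPKM), and their part was not tested.

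**Figure D5:**
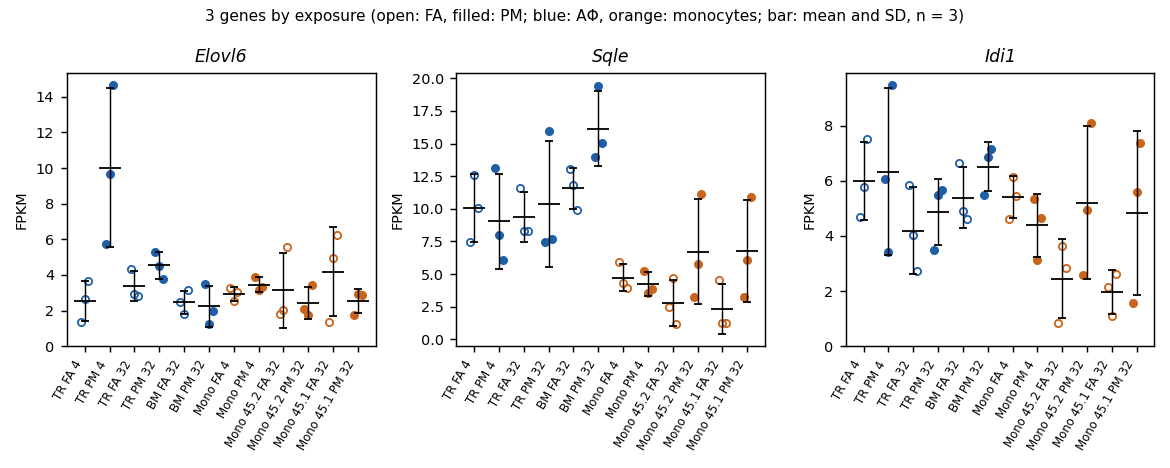
FPKM of Elovl6, Sqle and Idi1 in each library by cell group (open circles FA, filled circles PM, bars mean ± SD of 3 libraries). Elovl6 after PM (5.73 to 14.6 FPKM) lies above FA (1.38 to 3.63 FPKM) in TR-AΦ at 4-weeks without passing (limma adjusted p = 0.418). For Sqle and Idi1 in monocytes at 32-weeks the exposures overlap.

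Tm7sf2 was the gene with the lowest p in monocytes at 4-weeks. It was listed at 0, 0.304 and 0 FPKM after FA and had 0.805, 2.97 and 1.19 FPKM after PM, a log2 difference of 1.20 on the log2(FPKM + 1) scale (95% interval 0.39 to 2.003, adjusted p = 1). Next in order were Scd2 (-0.49) and Srebf1 (0.25).

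Within groups, many but not all pairs of sterol enzymes rose and fell together from library to library. Over the 18 AΦ libraries, with group means removed, the median Pearson r over the 153 pairs of 18 enzymes was 0.29, with 117 pairs above 0, and over all pairs of tested genes it was 0.045. In the 18 monocyte libraries the median over 120 pairs of 16 enzymes was 0.16, with 80 above 0, and over all genes it was 0.041. Single pairs of enzymes ran from -0.49 to 0.89 in AΦ and from -0.58 to 0.95 in monocytes. The share of all gene pairs above 0 was not computed. Over the 21 pairs of the 7 fatty acid genes the median was 0.20 in AΦ and 0.27 in monocytes, so such values were not particular to the sterol enzymes. All genes of a library share its depth and sort, so the values are a description. By median r with the enzymes in AΦ, Msmo1 (0.60), Cyp51 (0.57) and Fdft1 (0.54) were most tied to the rest. Pmvk (-0.00), Nsdhl (-0.06), Lss (0.05), Mvd (0.08) and Ebp (0.08) were tied to it least. Among the genes outside the enzymes, Stard4 had 0.52 in AΦ and 0.58 in monocytes, and Scap had -0.39 and -0.24. Srebf2 had 0.09 in AΦ and 0.39 in monocytes.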

How the data were processed

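AΦ and monocytes sorted from mouse lung were profiled by RNA-seq in 36 libraries, 12 groups of 3. The authors trimmed the reads, aligned them to mm10 with STAR under GENCODE and computed FPKM per gene with Cufflinks, and these deposited FPKM were the values used. Their tests, made with Cuffdiff, were not used. Groups came from the sample titles. The 31 genes, the other lists and the tests were chosen with earlier results of these data known.

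The FPKM, after adding 1, were put on a log2 scale and compared by limma 3.58.1 (R 4.3.3), giving each group its own mean and letting the variance follow a trend. Because FPKM are not counts, no count model and no counting interval was used. A gene entered a test when its FPKM averaged 1 or more across that test's libraries: 12665 in AΦ, 12856 in monocytes and 13307 in both. Comparisons within a cell type used its 18 libraries, and those between cell types all 36. P-values were adjusted by Benjamini-Hochberg across every gene of a comparison, and the threshold was 0.05. There were 19 comparisons, and 1 was added after the data were seen. Libraries were treated as unpaired and independent, also where cell populations would share mice. Groups of a model shared 1 estimate of the spread, so p-values do not measure the spread of the compared groups alone.

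Values in each library were given for up to 4 genes per direction with the largest change past the threshold, or for the genes with the lowest p where none passed; other genes given by library were chosen after their values were seen. In the 4-weeks and 32-weeks comparisons of cell types all 31 genes were described by role. Alternatives were a pseudocount of 0.1, no filter, quantile normalization, FPKM rescaled to 1 sum, only the groups compared, replicate blocks, and leaving out single libraries or all those numbered 2. The procedure was tested on simulated data. Gene positions were from GENCODE M21, in which 27413 of the 27562 gene IDs were found, and promoters from RefSeq. Python 3.11.15 and matplotlib 3.10.9 made the figures. Some genes of these pathways are not reported here.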

Additional observations from a re-analysis of the deposited data

Results flagged for a closer look

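The change of Srebf1 between 4-weeks and 32-weeks differed between CD45.2 cell types by a direct test. Srebf1 was 1 of 31 genes to pass, near the 3.53% of all genes that passed in that direction. The change was 0.58 higher on the log2 scale in TR-AΦ than in monocytes (limma adjusted p = 0.0109), with all 6 TR-AΦ libraries at 32-weeks above all 6 at 4-weeks. Over the alternatives the value ran from 0.44 to 0.74 and the adjusted p from 0.00395 to 0.166.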

How the results depend on the processing

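Of 18 calls for named genes, 9 passed under every alternative. In AΦ against monocytes the number of the 31 genes past the threshold stayed within 1.5 times its value (20 at 4-weeks and 23 at 32-weeks); without single libraries it was 18 to 20 and 22 to 24. The 32-weeks difference of Insig1 turned to 0.040 with rescaled libraries. For TR-AΦ over time the count of 4 became 1 with rescaled libraries, 2 with only the groups compared, 2 with all libraries numbered 2 left out, and 3 to 5 without single libraries. After FA alone the count of 0 became 1 under quantile normalization, under the replicate block or without the libraries numbered 2, and was 0 to 1 without single libraries. After PM alone the count of 1 became 0 with rescaled libraries, with only the groups compared or without the libraries numbered 2, 2 under the replicate block, and was 0 to 1 without single libraries. In CD45.2 monocytes over time the count of 1 became 3 with rescaled libraries, 2 under the replicate block, 2 with only the groups compared and 0 to 2 without single libraries (2 without replicate 2 of PM at 32-weeks). For cell type by time the count of 1 became 0 under quantile normalization, 3 under the replicate block and 1 to 2 without single libraries (2 without replicate 0 of FA monocytes or replicate 1 of PM monocytes at 4-weeks, or replicate 2 of PM CD45.2 monocytes at 32-weeks). With rescaled libraries this count stayed at 1, but Srebf1 did not pass (limma adjusted p = 0.166), so the gene called was a different one. The cause of these changes was not tested. In the comparisons of PM with FA and of origins the count of the 31 genes was 0 under every alternative run.

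Among all genes, and apart from single libraries left out, the calls ran from 22 to 85 for BM-AΦ against TR-AΦ (40 as reported), from 34 to 149 for CD45.1 against CD45.2 monocytes (86), from 331 to 1308 for TR-AΦ over time (748), from 15 to 197 for FA alone (99), from 18 to 381 for PM alone (133), from 1020 to 2644 for monocytes over time (1914), from 648 to 1559 for cell type by time (1049) and from 0 to 13 for the exposure comparisons (0 to 2). Shared replicate numbers are not stated to mark the same mouse. With group means removed, same-numbered libraries correlated between -0.05 and 0.20 across times, -0.09 and 0.21 across exposures, -0.02 and 0.08 across cell types and -0.04 and 0.09 across origins, and 6 of 12, 13 of 18, 10 of 18 and 9 of 12 libraries correlated best with their own number, so the replicate block is an alternative and not a pairing. With 3 libraries per group and no read counts, precision rests on the spread between libraries, and low genes such as Tm7sf2, Mvk and Lss are the least certain.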
